A study of Mus musculus with 4 samples.

Results

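The 8 genes described here encode the enzymes that write DNA methylation, Dnmt1, Dnmt3a and Dnmt3b, their cofactors Dnmt3l and Uhrf1, and the enzymes that oxidize it, Tet1, Tet2 and Tet3. They were chosen by symbol, and all 8 were found among the 24873 genes listed. RNA-Seq was performed on sorted brain cells of mice carrying Cdh5cre;Mgpflox/flox, in which a tamoxifen-activated Cre under the promoter of Cdh5, the gene of VE-cadherin, cuts Mgp in endothelial cells. The study asked how loss of Mgp, a gene of a BMP inhibitor, alters cerebral endothelial cells (ECs). Both groups had the same genotype. The 2 control libraries came from mice without tamoxifen, and the 2 tamoxifen libraries from mice given 5 daily injections of 75 mg/kg starting at an age of 10 weeks and examined on day 9. Each library pooled cells of 3 mice, so that the spread between libraries is a spread between pools. The cell labels name brain tdTomato+ cells, whereas the study's design and methods name CD31+CD45- cells. Columns marked C were read as control and those marked A, a letter that no label explains, as tamoxifen. Since the controls received no tamoxifen, effects of the drug and of the loss of Mgp cannot be told apart.

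Methyl groups on cytosine are placed mostly where cytosine precedes guanine (CpG). Dnmt1 copies them onto the new strand after replication and is brought to half-methylated DNA by Uhrf1, whereas Dnmt3a and Dnmt3b methylate unmethylated DNA and Dnmt3l, which has no catalytic activity, stimulates them. Tet enzymes oxidize methylcytosine, after which the mark is lost by dilution or by base excision repair. No DNA methylation was measured in these libraries, which give RNA levels.

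The libraries held 37475154 and 41025014 reads on genes in the control group, and 35387438 and 49799321 in the tamoxifen group. Mgp itself was listed at 1094 and 1352 normalized counts in controls and 945 and 909 after tamoxifen, a log2 difference of -0.39 that missed the test (SE 0.18, adjusted p = 0.0986, limma with Benjamini-Hochberg adjustment). The 10 endothelial marker genes fell in 10 of 10 cases, and their summed level was 788467 and 810871 normalized counts in controls against 147875 and 78424 in the tamoxifen libraries. All 13 genes of a cycling cell list rose, from sums of 8684 and 10167 to 144481 and 131039. Pluripotency genes rose in 12 of 12 cases, from sums of 240 and 355 to 72226 and 56595, and neutrophil genes in 10 of 10 cases, from sums of 312 and 248 to 114056 and 84866. By the call rule stated with the members, erythroid genes were higher in 8 of 8 cases (sums of 17446 and 35191 in controls and 167796 and 108247 after tamoxifen), fibroblast genes in 8 of 8 (2448 and 3397 against 71242 and 61409), and astrocyte genes in 8 of 8 (28985 and 34647 against 148340 and 309258). Calls were 8 of 8 for the oligodendrocyte lineage (3213 and 4159 against 25289 and 57766), 6 of 8 for neurons (1749 and 2155 against 14554 and 23985), 7 of 10 for leukocytes and microglia (1241 and 2382 against 6263 and 5365) and 1 of 8 for pericytes and smooth muscle (25709 and 45539 against 31947 and 65597). In the oligodendrocyte lineage sums after tamoxifen, Ptprz1 gave 14320 and 38626 and Cspg5 gave 5111 and 11825. Every other gene of that list was lower, with Mbp at 952 and 799. In the leukocyte and microglia list Csf1r, Cx3cr1 and P2ry12 were not called, whereas Tmem119 and Aif1 were called higher. Cx3cr1 was at 307 and 618 normalized counts in controls and 450 and 485 after tamoxifen. These counts of calls stand beside 28.6% of all tested genes called higher and 16% called lower. Among the marker genes of all these lists, only Dpt of the fibroblast list was at 0 in both control libraries. Utf1, Prtn3, Ctsg and Cd3e had at most 3 reads in each. These genes and Nanog, Sall4, Zfp42, Lin28a, Fgf4, Mpo and Elane had control means under 10 normalized counts, the mean over libraries needed for a test. They were tested only through the tamoxifen libraries, so no lower call was possible for them. The part of these other cell types and of cycling cells in the results below was not tested. In such bulk libraries fewer cells of a type and less RNA per cell cannot be told apart.

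The sequences before the start sites differed in CpG content. RefSeq gave 15 promoter windows for the 8 genes, each with 1 match in GRCm39. In the 250 bases before the start, CpG occurred 51 times for Tet2, 17 times for Tet3, 15 times for Tet1 and 21 times for Dnmt3b. Dnmt3a had 15 to 40 CpG over 3 starts, Dnmt1 had 2 to 26 over 3 starts, and Uhrf1 had 10 and 30 over 2 starts. Dnmt3l had 3 to 5 over its 3 starts, below the median of 6 over all 32851 promoters in the table. A RefSeq start need not be the start of the canonical transcript in GENCODE, which is at 77885676 for Dnmt3l and at 83433374 for Tet3. The Tet3 window lies inside the gene, downstream of that canonical start, whereas the Dnmt3l window shown ends just before it. The relation of CpG content to the changes described below was not tested. Tet1 and Dnmt3b, with 15 and 21 CpG, were called higher, whereas Tet3, with 17, was called lower. The windows of Dnmt3l (chr10:77885426-77885675, + strand) and Tet3 (chr6:83418661-83418910, - strand) are shown because these genes moved in opposite directions, with each CpG in capitals.
Dnmt3l: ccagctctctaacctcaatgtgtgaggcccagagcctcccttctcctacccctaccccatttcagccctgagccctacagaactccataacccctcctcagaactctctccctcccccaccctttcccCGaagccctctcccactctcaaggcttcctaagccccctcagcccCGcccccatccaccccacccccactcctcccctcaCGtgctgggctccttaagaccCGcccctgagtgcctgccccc
Tet3: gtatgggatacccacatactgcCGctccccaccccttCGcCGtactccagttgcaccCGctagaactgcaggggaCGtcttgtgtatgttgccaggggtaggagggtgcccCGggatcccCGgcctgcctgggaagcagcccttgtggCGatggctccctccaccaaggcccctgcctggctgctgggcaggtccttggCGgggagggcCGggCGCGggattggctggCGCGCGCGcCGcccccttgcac
A binding motif of E2F factors, which activate genes at the entry into S phase, was searched as TTTCCCGC, TTTGGCGC, TTTCGCGC or TTTGCCGC on both strands of the 300 bases around each start. It was present in 2.26% of all 32851 promoters, in 1 of 3 starts of Dnmt1 and in 1 of 2 starts of Uhrf1. In the windows of the other 6 genes these letters were not found. The 30 bases around the match are shown for the pair of maintenance genes (chr9:20864120-20864149, - strand, for Dnmt1 and chr17:56611117-56611146, + strand, for Uhrf1), with the match in capitals.
Dnmt1: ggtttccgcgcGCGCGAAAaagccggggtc
Uhrf1: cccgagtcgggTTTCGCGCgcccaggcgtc
The match began 219 bases before the RefSeq start of that window in Dnmt1, which held 2 matches, and 185 bases before it in Uhrf1. Both matches lie downstream of the canonical start in GENCODE, which is at 20864275 for Dnmt1 and at 56610275 for Uhrf1. A match is a description of the letters and not evidence of binding.

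Levels are given as normalized counts, reads divided by a library factor of the authors. A gene was called when the log2 fold change on log2(normalized count + 1) was larger than 1 in size and the adjusted p was under 0.05 (limma, Benjamini-Hochberg over 20485 genes), as in the cutoffs of the study. Of the 8 genes, 5 were called higher in the tamoxifen libraries, 1 lower and 2 neither. Among all genes tested, 28.6% were called higher and 16% lower, so that a high share of calls is common in this comparison. By adjusted p alone 6 of 8 genes passed, against 58.9% of all genes. The libraries of the groups did not overlap for any of the 8 genes, with 7 above the controls and 1 below them, and this held for 82.3% of all genes. The median log2 fold change was 1.62 over the 8 genes and 0.05 over all genes tested.

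**Figure D1:**
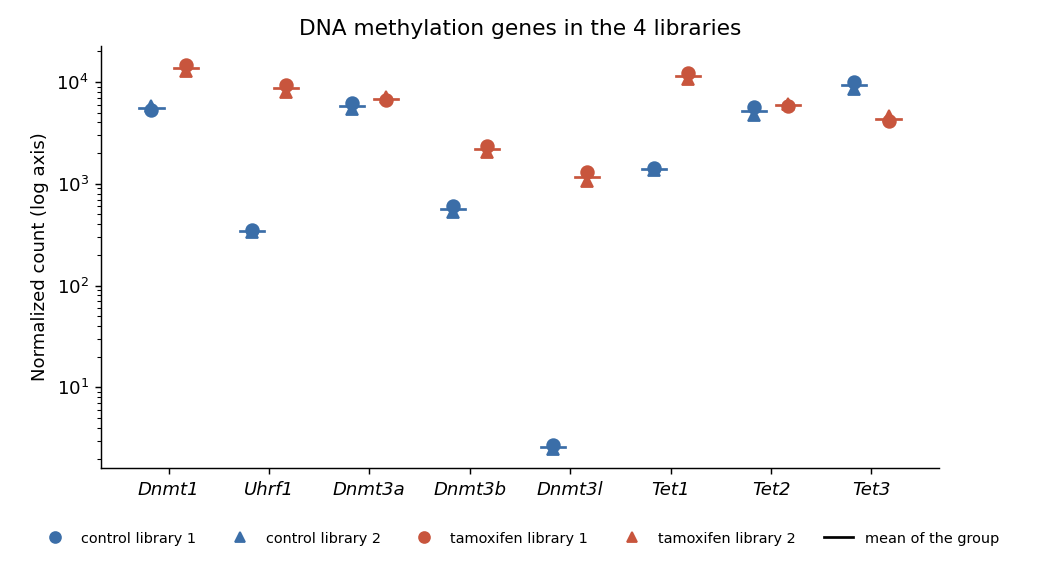
Normalized counts (log axis) of the 8 genes in each of the 4 libraries, with circles and triangles for libraries 1 and 2 of a group and a line at the group mean. The tamoxifen points lie above the control points for 7 genes and below them for Tet3, and Dnmt3l goes from 2.74 and 2.50 to 1296 and 1055 normalized counts.

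Both genes of maintenance methylation rose. Dnmt1 (chr9:20817945-20871184, - strand, GRCm39) was at 5313 and 5819 normalized counts in controls and 14643 and 12720.2 after tamoxifen. Both tamoxifen libraries exceeded both controls, and the transcript rose 2.46-fold (log2 fold change 1.30, SE 0.17, adjusted p = 0.00043, limma). Uhrf1 (chr17:56610275-56630489, + strand), which recognizes half-methylated CpG, was at 351 and 338 normalized counts in controls and 9433 and 8016 after tamoxifen. The groups were far apart, and the rise was 25.3-fold (log2 fold change 4.65, SE 0.16, adjusted p = 3.42e-06). Dnmt1 and its partner therefore rose by unequal amounts. There were 15.1 and 17.2 Dnmt1 counts for each Uhrf1 count in controls and 1.55 and 1.59 after tamoxifen. This ratio is taken within a library, so a single factor per library cancels out of it. Its log2 value fell by 3.36, with an exact permutation p of 0.333, two-sided, the smallest that 2 against 2 libraries can give.

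The de novo enzymes differed among themselves. Dnmt3a (chr12:3856007-3964443, + strand) was at 6206 and 5428 normalized counts in controls and 6594 and 7131 after tamoxifen. The groups did not overlap, but the gap between them was smaller than that between the control libraries, and the log2 difference of 0.24 missed the test (SE 0.16, 95% interval -0.13 to 0.61, adjusted p = 0.229, limma). With libraries rescaled to equal totals it was 0.71 (adjusted p = 0.0063) and under quantile normalization 0.69 (adjusted p = 0.00738), still below the size limit. Dnmt3b (chr2:153490861-153529650, + strand) was at 607 and 528 normalized counts in controls and 2343 and 2036 after tamoxifen. It rose 3.86-fold, with both tamoxifen libraries well above both controls (log2 fold change 1.95, SE 0.18, adjusted p = 9.68e-05). Dnmt3b counts per Dnmt3a count were 0.0979 and 0.0975 in controls and 0.355 and 0.286 after tamoxifen. The log2 ratio was higher by 1.71, with the same smallest possible exact permutation p of 0.333.

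Dnmt3l (chr10:77877781-77899456, + strand), the cofactor of the de novo enzymes that is known from germ cells and embryonic stem cells, changed most. It was at 2.74 and 2.50 normalized counts in controls, which is 2 reads in each, and at 1296 and 1055 in the tamoxifen libraries. From 4 reads in the controls and 2663 in the tamoxifen libraries the ratio of levels was 440.0, with an exact 95% interval of 172 to 1616 that covers counting error only. The limma test gave an adjusted p of 1.22e-05, and the fitted log2 fold change of 8.34 depends on the added count of 1. Dnmt3l passed the filter on low values only through the tamoxifen libraries. On the opposite strand its exons overlap those of Aire, a gene of thymic tolerance, which was listed at 0 and 2.50 normalized counts in controls and 228 and 140.2 after tamoxifen. The library kit keeps strand, but the strand setting of the counting is not given in the sources used here, and reads of Dnmt3l and Aire may be shared.

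Among the erasers, Tet1 (chr10:62640349-62744775, - strand), a dioxygenase abundant in embryonic stem cells, was at 1442 and 1372 normalized counts in controls and 12215 and 10722 after tamoxifen. It rose 8.15-fold, and the spread within each group was small beside the gap (log2 fold change 3.02, SE 0.15, adjusted p = 9.74e-06, limma). Tet2 (chr3:133169436-133250900, - strand) was at 5690 and 4707 normalized counts in controls and 5828 and 6050 after tamoxifen. Its control libraries lay farther apart than the groups did, and the log2 difference of 0.20 missed the test (SE 0.16, 95% interval -0.18 to 0.58, adjusted p = 0.326). Under the same other scalings it was 0.67 (adjusted p = 0.00892) and 0.60 (adjusted p = 0.0127). Tet3 (chr6:83339355-83436066, - strand) was at 10025 and 8558 normalized counts in controls and 4104 and 4594 after tamoxifen. It fell by 1.09 on the log2 scale (SE 0.17, adjusted p = 0.000924), to 0.468 of its control mean, and was the only member lower in the tamoxifen libraries. The call of Tet3 is close to the size limit of 1, and it was lost without control library 1 (log2 fold change -0.98) and without tamoxifen library 1 (-1.01, adjusted p = 0.0506). It was also lost with equal totals (-0.62, adjusted p = 0.0141) and under quantile normalization (-0.66, adjusted p = 0.0128). Exons of Tet3 overlap those of Bola3 on the opposite strand, which was at 586 and 981 normalized counts in controls and 906 and 692 after tamoxifen, with overlapping groups.

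**Figure D2:**
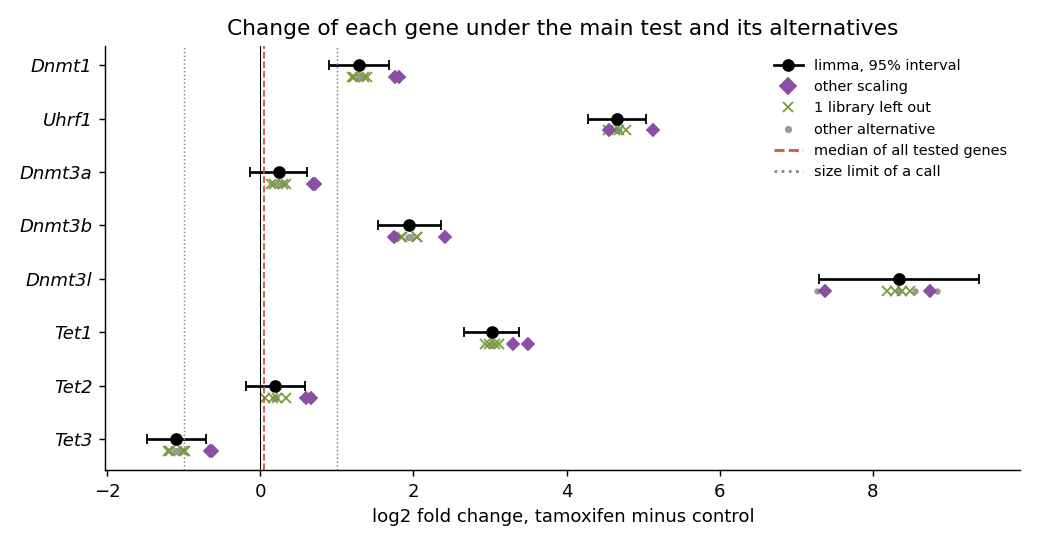
Log2 fold change (tamoxifen minus control) of each gene, with the limma estimate and its 95% interval as a black point and bar, and the estimates of 14 alternatives below it. The 5 genes called higher lie beyond 1 in all alternatives, Dnmt3a and Tet2 lie between 0 and 1, and Tet3 lies below 0 throughout but crosses the size limit under some.

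The Tet genes exchanged their order. Tet1 counts per Tet3 count were 0.144 and 0.160 in controls and 2.98 and 2.33 after tamoxifen, a log2 difference of 4.12 in which a single factor per library cancels out (exact permutation p = 0.333, the smallest possible). Per kb of exon, Tet1 made up 9.20% and 10.2% of the summed level of the Tet genes in controls and 57.9% and 53.0% after tamoxifen. Tet3 made up 59.2% and 59.1% in controls and 18.0% and 21.0% after tamoxifen. The share of Tet2 differed least, with 31.6% and 30.6% in controls and 24.1% and 26.03% after tamoxifen. The shares depend on the length used. With the longest annotated transcript as length, Tet1 made up 6.27% and 7.02% in controls and 46.7% and 41.8% after tamoxifen. It was still the largest Tet share in both tamoxifen libraries. Per kb of exon, the sum of the Tet genes was 1015 and 867 normalized counts in controls and 1365 and 1310 in the tamoxifen libraries.

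Among the catalytic Dnmt genes, Dnmt1 held the largest share in every library. It was 57.5% and 62.9% of their summed level per kb in controls and 69.2% and 66.7% after tamoxifen. Dnmt3a, whose level did not pass the test, made up 33.5% and 29.3% in controls and 15.6% and 18.7% after tamoxifen. Dnmt3b made up 9.001% and 7.83% in controls and 15.2% and 14.6% after tamoxifen. The sum of the catalytic Dnmt genes was 1087 and 1089 normalized counts per kb in controls and 2488 and 2244 in the tamoxifen libraries. Divided by the Tet sum of the same library it was 1.07 and 1.26 in controls and 1.82 and 1.71 after tamoxifen, a log2 difference of 0.61 (exact permutation p = 0.333).

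**Figure D3:**
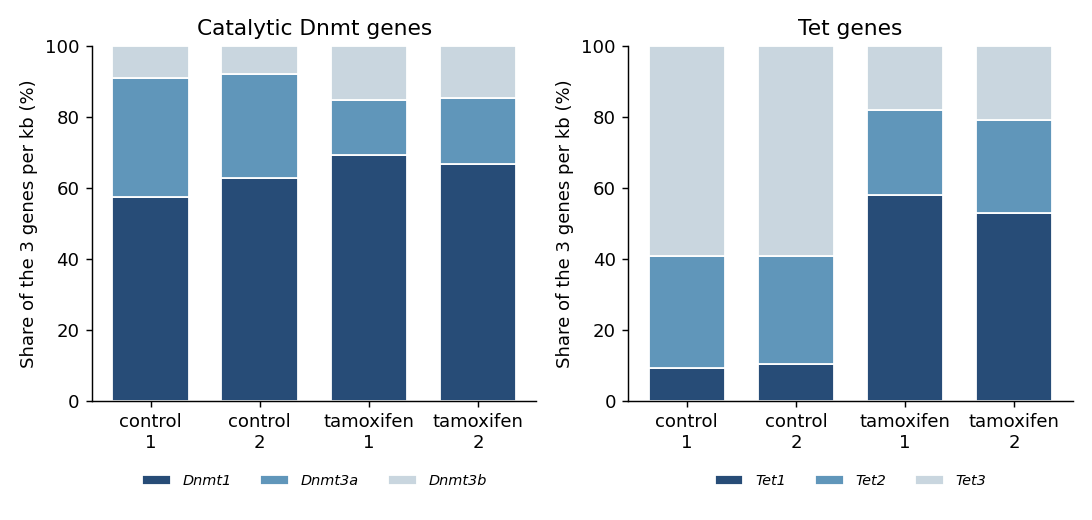
Share (%) of each gene in the summed normalized count per kb of exon of the catalytic Dnmt genes (left) and the Tet genes (right), 1 bar per library. Tet1 grows from 9.20% and 10.2% to 57.9% and 53.0% of the Tet sum, and Dnmt1 remains the largest of its family in every library.

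Ordered by level per kb of exon, the control libraries had Dnmt1 first, with a mean of 655 normalized counts per kb, followed by Tet3 at 557, Dnmt3a at 342 and Tet2 at 293. Dnmt3b at 91.5 and Tet1 at 91.0 came next, then Uhrf1 at 65.2, and Dnmt3l was last at 0.851. The libraries of Dnmt3a and Tet2 overlapped, as did those of Dnmt3b and Tet1, so these neighbours were not separated. In the tamoxifen libraries Uhrf1 at 1653 and Dnmt1 at 1609.6 normalized counts per kb led and overlapped. Tet1 followed alone at 742. Dnmt3a at 403, Dnmt3l at 382, Dnmt3b at 353 and Tet2 at 335 formed a run in which each neighbour overlapped with the next, and Tet3 was last at 261. Uhrf1 thus went from the seventh place to sharing the lead with Dnmt1, and Tet3 from the second to the last. With the longest annotated transcript as length, Dnmt1 (2128 normalized counts per kb) stood before Uhrf1 (2116) in the tamoxifen libraries, again with overlap. On that scale Dnmt1 and Tet3 overlapped in the control libraries, Dnmt3b (125 normalized counts per kb) and Tet1 (97.9) were separate there, and Dnmt3b (481) stood below Tet2 (605) in the tamoxifen libraries.

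**Figure D4:**
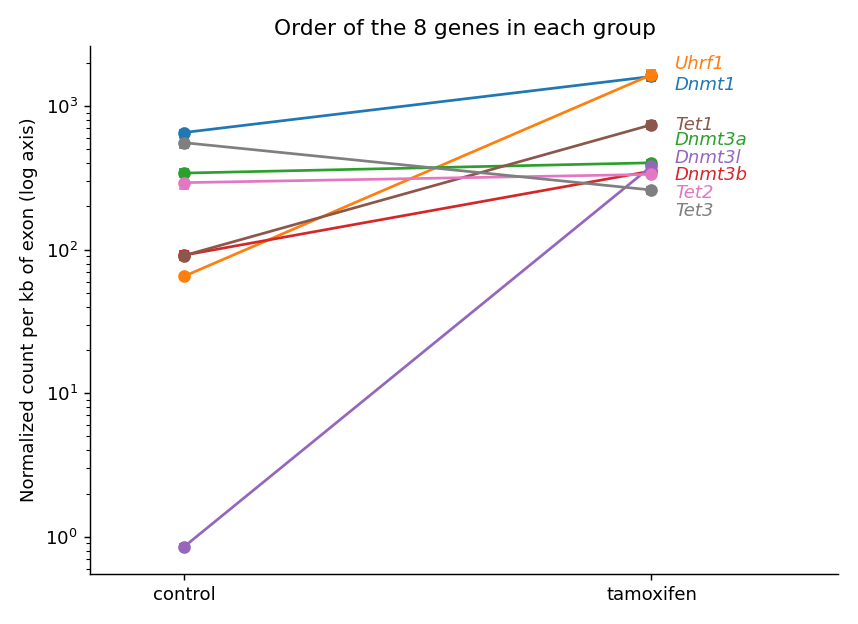
Mean normalized count per kb of exon (log axis) of the 8 genes in the control and tamoxifen groups, with bars from the lower to the higher of the 2 libraries. Uhrf1, Tet1 and Dnmt3l cross other genes on the way up, and Tet3 is the only line that falls.

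For each member the 3 genes with the most similar pattern over the 4 libraries were sought among 13660 genes, by the root mean square difference of their centred log2 values. Tet3 was closest to Bcl2, an inhibitor of apoptosis (difference 0.00373), which was at 2590 and 2209 normalized counts in controls and 1063 and 1193 after tamoxifen, and then to Dnajb9 and Kmt5b. Dnmt1 was closest to Nup205, Ugdh and Fbxl19, and Uhrf1 to Aurka, a mitotic kinase, Cers6 and Loxl1. Near Dnmt3l were Lin28b and 2410003L11Rik. Lin28b, which blocks maturation of let-7 microRNAs, was listed at 0 in both control libraries and at 353 and 305 normalized counts in the tamoxifen libraries. Dnmt3b was closest to Uchl3, Nop58 and Fancm, and Tet1 to Chmp4c, Ccdc18 and Ankrd35. Dnmt3a went with Vps50, Hspa13 and Hspa5, and Tet2 with E2f5, Zswim6 and Arhgap28. With 4 libraries in 2 groups such likeness mainly reflects the fold change and the spread within pairs.

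The surrounding pathway was described by lists of genes, each given by its calls, to be read beside the 28.6% called higher and 16% called lower among all genes tested. A list of 19 genes covered maintenance methylation and the targeting of writers and erasers. Of these, 12 were called higher and 0 lower, with a median log2 fold change of 1.48. The list also holds genes that limit methylation, such as Dppa3 and Prdm14, both called higher. The 12 calls are therefore not all of genes that promote methylation. Dppa3, Prdm14 and Dppa2 had control means of 0, 4.73 and 2.56 normalized counts. They passed the filter on low values only through the tamoxifen libraries, so no lower call was possible for them. Hells, a chromatin remodeler needed for methylation of repeats, was at 427 and 299 normalized counts in controls and 4577 and 3540 after tamoxifen (log2 fold change 3.49). Cdca7, its partner, rose by 2.22, Lig1, which joins Okazaki fragments and recruits Uhrf1, by 2.86, and Pcna, the replication clamp that binds Dnmt1, by 1.11. Zfp57 and Trim28, which keep methylation at imprinted loci, rose by 1.94 and 1.48. Dppa2, which is known from embryonic stem cells, was at 1.37 and 3.75 normalized counts in controls and 1155 and 905 after tamoxifen. Uhrf2, the paralog of Uhrf1, was not called (log2 fold change -0.25, adjusted p = 0.236, limma), nor was Usp7, a deubiquitinase that binds Dnmt1 (0.35, adjusted p = 0.122).

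Readers of methylated CpG are proteins with domains that bind the mark or resemble such domains. Of 10 such genes, 0 were called higher and 3 lower under the scaling of the authors, and the split was 1 higher and 1 lower with libraries rescaled to equal totals, and 1 lower under quantile normalization. Lower calls made up 16% of all genes tested. Their median log2 fold change was -0.84, and 8 of 10 were lower in both tamoxifen libraries, where groups that do not overlap, in either direction, held for 82.3% of all genes. Zbtb4, a zinc finger reader, was at 9473 and 10675 normalized counts in controls and 3453 and 2661 after tamoxifen (log2 fold change -1.73). Zbtb38 and Mbd6 were the other genes called, at -1.12 and -1.05.

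Base excision repair completes the removal of oxidized methylcytosine. Of 15 genes, 5 were called higher and 0 lower, a share of higher calls near the 28.6% of all genes tested, and the median log2 fold change was 0.38. Neil3, a glycosylase, was at 6.85 and 12.5 normalized counts in controls and 791 and 809 after tamoxifen (log2 fold change 6.28). The control mean of Neil3, 9.68 normalized counts, lay under the filter of 10, so no lower call was possible for it. Ung, which removes uracil, rose by 3.38, Apex1, which cuts abasic sites, by 2.85, and Parp1, a sensor of strand breaks, by 2.07. By adjusted p alone 7 genes of the list were higher and 3 lower. The lower genes were Gadd45b, Neil1 and Polb, with log2 fold changes of -0.81, -0.74 and -0.71. Tdg, the glycosylase that excises the products of Tet enzymes, was at 534 and 667 normalized counts in controls and 793 and 1017 after tamoxifen. It was not called because its log2 fold change of 0.59 (adjusted p = 0.0491) was below the size limit.

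The metabolites that these enzymes need were represented by genes of the methyl donor cycle and of 2-oxoglutarate, the cosubstrate of Tet enzymes. In the methyl donor cycle 6 of 15 genes were called higher and 1 lower, beside 28.6% and 16% of all genes tested, with a median log2 fold change of 0.27. Bhmt, 1 of the 6, had a control mean of 2.68 normalized counts and was tested only through the tamoxifen libraries. With a filter at a mean of 100 normalized counts the higher calls were 4. Ahcy, which removes the product that inhibits methyltransferases, was at 268 and 333 normalized counts in controls and 1625 and 1306 after tamoxifen (log2 fold change 2.28). Shmt1 and Mthfd1, enzymes of folate metabolism, rose by 3.34 and 2.51. Mat2a, which makes the methyl donor in most tissues, did not pass (log2 fold change -0.05, adjusted p = 0.885, limma), and Mat1a, its liver paralog, was called lower from levels of 13.7 and 21.3 normalized counts, a call of the list that was absent in 5 of 14 alternatives. For 2-oxoglutarate, 5 of 12 genes were called higher and 0 lower, with a median of 0.74, and without tamoxifen library 2 the higher calls were 3. Idh1 and Idh2, which make it from isocitrate, rose by 1.80 and 2.12.

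**Figure D5:**
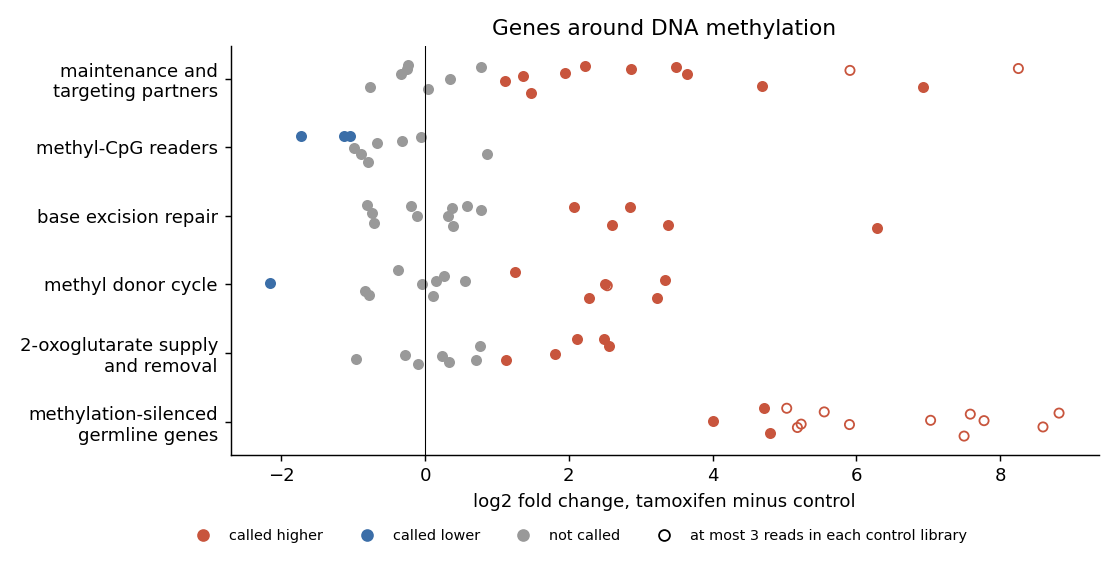
Log2 fold change (tamoxifen minus control) of every tested gene in 6 lists around DNA methylation, 1 point per gene, coloured by its call, with open circles for genes with at most 3 reads in each control library. The mixed maintenance and targeting list extends furthest to the right among the first 5 lists. Methyl-CpG readers lie mostly left of 0. All 14 tested germline genes lie to the right, but all except Ddx4 passed the filter on low values only through the tamoxifen libraries.

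Germline genes whose promoters are kept silent by DNA methylation in somatic tissues were read as a further list. Of 16 such genes 14 were tested, and 14 of those were called higher. In the control libraries 13 of 16 had at most 3 reads each, so a gene passed the filter mainly through the tamoxifen libraries, and the fitted folds are no bounds. Their summed level was 46.6 and 42.6 normalized counts in controls and 4944 and 3483 after tamoxifen. Dazl, an RNA-binding protein of germ cells, was at 2.74 and 1.25 normalized counts in controls and 1684 and 1017 after tamoxifen. Ddx4, a germ cell helicase, was at 24.7 and 11.3 normalized counts in controls and 298 and 269.6 after tamoxifen. Asz1 and Tex101 were not tested, because their mean was under the filter of 10 normalized counts. Pluripotency and cycling genes rose in the same libraries, as given above, and their part in the levels of the germline list was not tested.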

How the data were processed

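RNA-Seq of 4 libraries, 2 control and 2 tamoxifen, was analysed. Per the study's methods and processing notes, the authors aligned reads to GRCm39 with STAR 2.7.10a and normalized with DESeq2 1.36.0. The deposited values are a signal, counts divided by library factors. Division by the value of 1 read returned whole reads for 100% of values (tolerance 0.01 reads), and the totals on genes give the depth. The tamoxifen libraries had 0.722 of the normalized total of the controls.

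limma 3.58.1 with a trend was fitted to log2(normalized count + 1) without covariates, keeping the 20485 genes whose mean over libraries reached 10 normalized counts, and p-values were adjusted by the Benjamini-Hochberg method. The scripts were tested on simulated data. Alternatives were edgeR 4.0.16 and DESeq2 1.42.0 on the recovered reads, other pseudocounts (0.5 and 5), filters (none and a mean of 100) and scalings, no trend, adjusted p alone, a replicate block and each library left out. With 2 libraries a group no exact test can go below 0.333. Replicate libraries differed by more than sampling noise (chi-square per degree of freedom 33.1 and 81.3). Each library is a pool of 3 mice, so p-values measure the spread between pools. Levels per kb used the exon union of GENCODE M39, in which 24451 of 24873 symbols were found. Sequences are from RefSeq promoters on GRCm39. Ratios were compared by exact permutation, and shares were described without a test. The members and lists were chosen with earlier results of these data known. Genes named are the 8 members, genes of the lists, their overlapping genes and the 3 genes most like each member. Some genes of the lists and of these nearest genes are not reported here.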

Additional observations from a re-analysis of the deposited data

How the results depend on the processing

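Dnmt1, Dnmt3b, Dnmt3l, Uhrf1 and Tet1 were called higher in 14 of 14 alternatives. Dnmt3a and Tet2 were called in 0 of 14 and passed the adjusted p alone under the 2 other scalings (Dnmt3a 0.71 with equal totals and 0.69 with quantile normalization, Tet2 0.67 and 0.60). Tet3 stayed lower in 14 of 14 but was called in 10, with -0.62 for equal totals, -0.66 for quantile normalization and -1.21 to -0.98 with a library left out. Members called lower were then 0 under both scalings and 0 to 1 with a library left out. Equal totals moved the median of all genes by 0.47 and quantile normalization by -0.28, and the share of called genes that were higher was 64.1% as reported, 79.7% and 45.6%. Testing all genes without a filter moved that median by 0.13.

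By adjusted p alone, genes called lower were 1 of the maintenance and targeting list, 7 readers, 3 repair genes, 3 methyl donor genes and 1 2-oxoglutarate gene. On the same rule 1 reader was called higher. Under quantile normalization 1 reader, 2 repair genes and 1 2-oxoglutarate gene were lower, and with equal totals 1 reader was higher and 1 lower. Methyl donor genes called lower were 0 with DESeq2 and 0 at a filter of 100, and germline genes called higher were 7 at that filter. With a library left out, lower calls ranged from 0 to 1 in repair, methyl donor and 2-oxoglutarate genes, and higher calls from 3 (without tamoxifen library 1) to 6 for the methyl donor cycle, 3 (without tamoxifen library 2) to 6 for 2-oxoglutarate and 9 (without either tamoxifen library) to 14 for germline genes. The lower call appeared without control library 1 in repair and without control library 2 in 2-oxoglutarate genes. Calls over all genes were 5867 higher and 3284 lower, against 3540 and 2394 at a filter of 100, 3030 and 1994 without tamoxifen library 1, and 2553 and 1594 without tamoxifen library 2. The cause of these changes was not tested.

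The replicate number as a block gave 6064 and 3461 calls and changed no call of a member (Dnmt1 1.30, Tet3 -1.09). The deviations of same-numbered libraries had a correlation of 0.0251 over genes. This single value shows no pairing by number, but it cannot exclude a pairing with a small effect.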
